A study of Mus musculus with 2 samples.

Results

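Mouse genes that were first catalogued from full-length cDNA clones carry names ending in Rik, and many still have no other description. The genes described here are those whose name ends in Rik, whose transcripts all carry RefSeq accessions for noncoding RNA (prefix NR_), and whose estimated counts summed to at least 50 over both libraries. The members were thus chosen by their summed count, which is a measured value, and not by their ratio. They number 245, out of 1186 Rik genes with noncoding accessions alone, 2279 Rik genes and 23329 genes in all. Of the other Rik noncoding genes, 528 had 0 counts in both libraries and 413 had counts above 0 but under the minimum of 50. A scarce gene could reach the minimum through 1 library alone, so the lowest counts are read with care.

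RNA came from whole brain of wild-type C57BL/6 mice, with 1 library from the total homogenate and 1 from synaptosomes. Both library titles also carry the code CT10, which the labels do not explain. Synaptosomes are sealed nerve terminals, often with a piece of the facing dendrite, made by shearing brain tissue. They were collected here between the 3% and 10% Percoll layers after nuclei had been spun down. The labels used here name neither age nor the number of animals. The homogenate library held 15210838 estimated counts and the synaptosome library 13709528, of which the 245 genes took 0.60% and 0.44%. Where 2 counts are given for a gene below, the homogenate comes first. With 1 library per fraction no spread between preparations could be measured and no test is given. Each 95% interval covers counting error only, and PCR copies are not independent molecules. In RNA from bulk tissue, fewer cells of a type and less RNA per cell cannot be told apart.

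Long noncoding RNAs are transcripts that are spliced and polyadenylated much like mRNAs but are not known to encode a protein. Many stay in the nucleus, where they act at chromatin or in nuclear bodies, and others are exported to the cytoplasm. Some are host transcripts. A microRNA (miRNA) host is cut in the nucleus by the enzyme Drosha, which frees the hairpin that becomes the mature miRNA, and a small nucleolar RNA (snoRNA) host carries snoRNAs in its introns, which guide modification of ribosomal and other RNAs.

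A miRNA gene lay inside the span and on the strand of 12 of the 245 genes. These hosts were among the lowest of the Rik noncoding genes, so a selection of mature miRNAs from hosts that were at least 2-fold lower is shown, as RefSeq gives them (build GRCm38.p6). The miR-124 of A930011O12Rik is named only. Capitals mark the seed, bases 2 to 8, which pairs with target mRNAs. The pair from A330023F24Rik (chr1:195017399-195037908, + strand) share a seed. A230057D06Rik (chr7:61705850-61927574, - strand) holds 7 genes of the miR-344 family, of which the 2 shown share a seed in their 3p arm, while the 3p arms of miR-344b, miR-344d, miR-344e and miR-344h have other seeds.
mmu-miR-29b-3p: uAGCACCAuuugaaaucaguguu
mmu-miR-29c-3p: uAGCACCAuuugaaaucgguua
mmu-miR-344-3p: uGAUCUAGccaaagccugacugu
mmu-miR-344c-3p: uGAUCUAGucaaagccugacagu
mmu-miR-433-3p: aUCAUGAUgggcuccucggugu
mmu-miR-374b-5p: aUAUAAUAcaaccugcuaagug
mmu-miR-101a-3p: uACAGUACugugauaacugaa
mmu-miR-22-3p: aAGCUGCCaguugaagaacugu
mmu-miR-6516-3p: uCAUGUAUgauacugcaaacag
mmu-miR-1839-5p: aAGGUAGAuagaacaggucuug

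The miR-433 host is 6430411K18Rik (chr12:109591537-109592851, + strand), the miR-374b host is B230206F22Rik (chrX:103560910-103623754, - strand) and the miR-101a host is E130102H24Rik. The miR-22 host is 2210403K04Rik (chr11:75461539-75466690, + strand), the miR-6516 host is 2810008D09Rik and the miR-1839 host is 2900076A07Rik.

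The Rik noncoding genes as a group lay below the typical gene in the synaptosome fraction, and more of them were lower than higher. The median log2 ratio, synaptosome over homogenate, was -0.29 over the 245 genes, with the middle 50% between -0.92 and 0.37. The median was 0.00 over all 13465 genes with at least 50 counts. Over all 651 Rik noncoding genes with at least 1 count it was -0.09, so the median depended on the minimum. Genes are called higher or lower here where the difference was at least 2-fold with a 95% counting interval that excluded equality. Of the 245 genes, 30 (12.2%) were higher and 55 (22.4%) lower, and 160 lay between. Over all 13465 genes the shares were 12.9% higher and 8.57% lower. The share of higher genes was near that background and the share of lower genes was above it. These shares are not matched for count. Of the 55 lower genes 26 had 50 to 99 counts, a range that held 86 of the 245 genes and 1072 of all 13465. In that range 23.2% of all genes were lower.

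These ratios are relative to the typical gene, because the libraries were scaled with TMM factors, which assume that most genes do not differ. Scaling by library totals moved every log2 ratio by -0.49, which put the median of all genes at -0.49 and that of the 245 genes at -0.78. Then 13 of the 245 were higher and 99 lower, beside 4.52% higher and 25% lower of all genes.

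**Figure D1:**
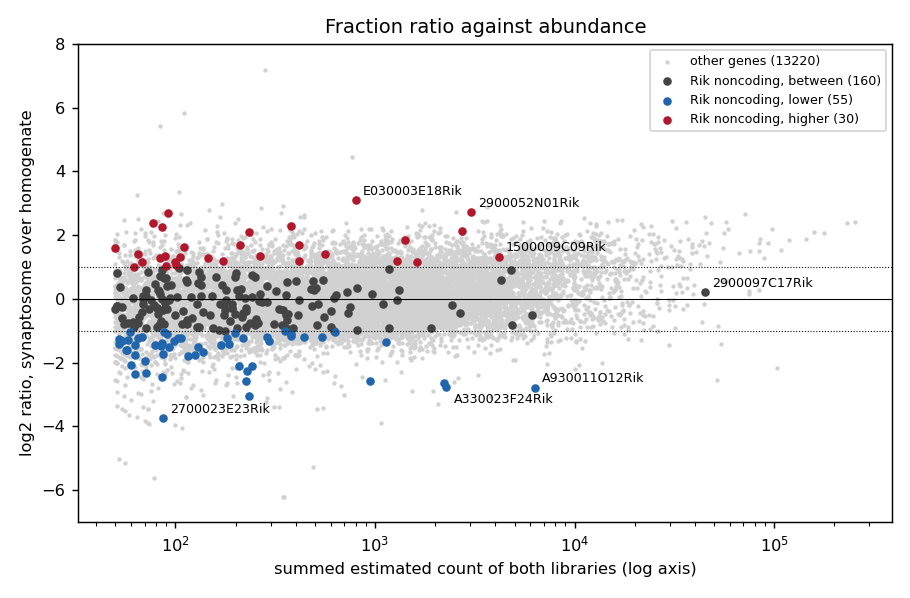
Log2 ratio, synaptosome over homogenate, against the summed estimated count of both libraries (log axis) for the 245 Rik noncoding genes over all other genes with at least 50 counts. Red and blue points are the 30 higher and 55 lower genes, dotted lines mark 2-fold, and A930011O12Rik and A330023F24Rik stand out as abundant genes far below 0.

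The low median was shared with noncoding genes that have other names. The 177 other genes with noncoding accessions alone also had a median of -0.29, with 22 higher and 35 lower (19.8%). The 559 Rik genes with mRNA accessions (prefix NM_) had a median of -0.12, with 45 higher and 48 lower (8.59%). The 12248 other mRNA genes had a median of 0.01, with 13.3% higher and 8.12% lower. Both noncoding classes thus had equal medians, and both mRNA classes had higher ones.

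Known nuclear noncoding RNAs that are not Rik genes were lower still. Of 13 measured on a list of nuclear long noncoding RNAs, 7 were lower and 0 higher, with a median of -1.11. Pantr1, also on that list, is carried here as the Rik gene 2610017I09Rik. It is not among the 13 and was higher, at 1.17. Malat1, an RNA of nuclear speckles, was at -2.08 on the log2 scale, and Neat1, the scaffold of paraspeckles, was at -3.29. Of 9 measured host genes on a list of snoRNA hosts, 1 was lower and 0 higher, with a median of -0.19.

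Among genes with more counts, a larger share of Rik noncoding genes than of other mRNA genes was lower. At 500 counts and more, 15.9% of 44 Rik noncoding genes and 4.80% of 7894 other mRNA genes were lower. From 200 to under 500 counts (60 Rik noncoding genes) the shares were 20% and 10.1%, and from 100 to under 200 (55 genes) they were 18.2% and 15.2%. From 50 to 99 counts (86 genes) they were 30.2% and 23.2%. That last range holds genes that reached the minimum almost wholly through the homogenate, such as 2700023E23Rik with 83 and 4 counts, so nothing is read from its shares. Medians of the Rik noncoding genes from the lowest to the highest counts were -0.32, -0.27, -0.33 and -0.15.

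**Figure D2:**
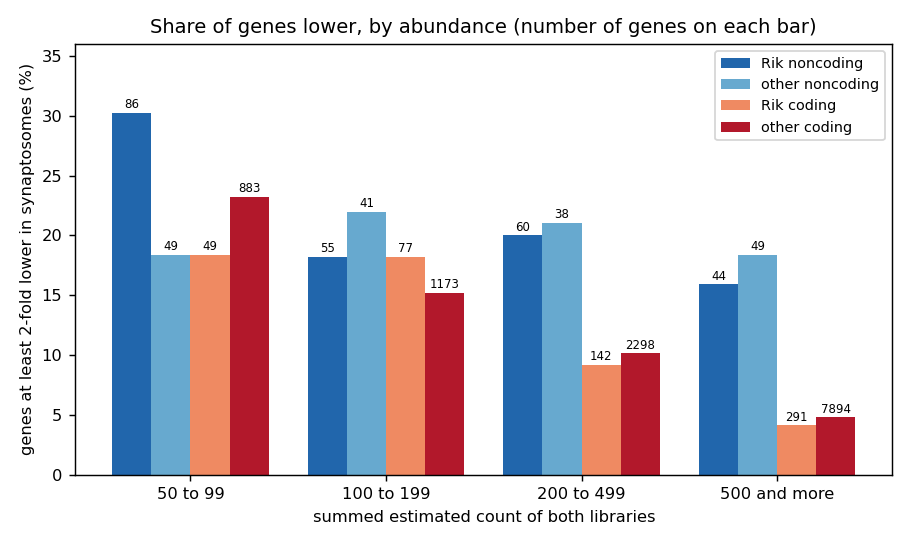
Percent of genes at least 2-fold lower in the synaptosome fraction, by range of summed estimated count, for 4 classes of genes, with the number of genes above each bar. At 500 counts and more the bars of both noncoding classes stand at 15.9% and 18.4%, and those of both mRNA classes at 4.12% and 4.80%.

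Across the 245 genes the ratio had only a weak relation to abundance. Spearman's rho between the log2 ratio and the summed count was 0.107, and 0.103 without 2900097C17Rik, by far the most abundant. With a minimum of 1 count in place of 50 (651 genes) the sign turned and rho was -0.270. With mean TPM, an abundance per transcript length, rho was 0.223. These are descriptions across genes that share both libraries, and the counts at the low end carry the most error. In the 12248 other mRNA genes rho with the summed count was 0.222.

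Wider transcripts tended to have lower ratios. Transcript width here is the summed length of the exons, and its median was 1898 bases. In 41 genes under 1 kb the median log2 ratio was 0.10, with 10 higher and 10 lower. It was -0.21 in 90 genes of 1 to 2 kb (12 higher, 15 lower) and -0.46 in 82 genes of 2 to 4 kb (5 higher, 20 lower). In 32 genes of 4 kb and more it was -0.79, with 3 higher and 10 lower. As shares, 24.4% of the genes under 1 kb were higher and 24.4% lower, beside 20% and 7.07% of all genes of that width. In the next ranges 13.3% and 16.7% stood beside 10.9% and 8.90%, and 6.10% and 24.4% beside 11.9% and 9.40%. At 4 kb and more 9.38% were higher and 31.2% lower, beside 14.1% and 7.51% of all genes. The share of higher genes was thus near the background or below it in each range of width, and that of lower genes was above it. These backgrounds are not matched for count. The median summed count under 1 kb was 95 in the Rik noncoding genes and 558 over all genes. At 4 kb and more it was 458 and 1255. Spearman's rho between ratio and width was -0.210, and -0.244 as a partial correlation given the summed count, since wide transcripts also had more counts (rho 0.242). The middle 50% of each range overlapped the next.

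The other noncoding genes showed the same order of medians by width and the mRNA genes did not. Medians from the narrowest to the widest range were 0.77, -0.20, -0.37 and -0.48 in other noncoding genes, with rho of -0.244. In other mRNA genes they were 0.19, -0.03, -0.03 and 0.05, with rho of 0.016. In Rik genes with mRNA accessions they were 0.23, -0.24, -0.24 and -0.09, with rho of -0.030. Given the summed count, the partial correlation in those Rik mRNA genes was -0.131. In each class the median was highest under 1 kb, so that part of the pattern was not particular to noncoding genes. Whether the Rik noncoding genes differ from these classes in slope was not tested.

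**Figure D3:**
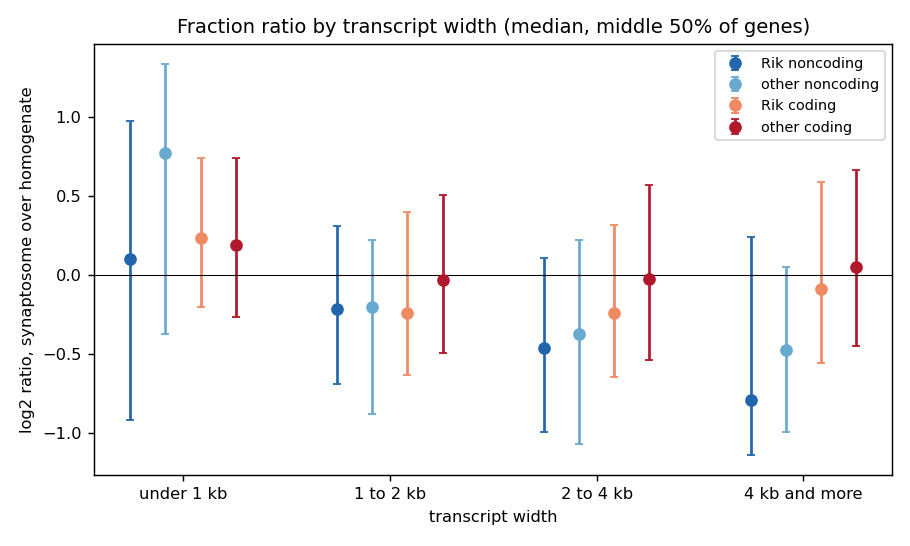
Median log2 ratio, synaptosome over homogenate, with bars for the middle 50% of genes, by range of transcript width and class of gene. The Rik noncoding medians step down from 0.10 under 1 kb to -0.79 at 4 kb and more, while the medians of other mRNA genes stay between -0.03 and 0.19.

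When the 245 genes were split at the median width and the median summed count (166.94), abundance and width showed different patterns. Narrow and abundant genes had the highest median, -0.07 over 48 genes, with 10 higher and 6 lower. Narrow and scarce genes had -0.28 (73 genes), wide and scarce genes -0.33 (49 genes) and wide and abundant genes -0.45 (75 genes). Of the wide and abundant genes 5 were higher and 17 lower. As shares, the narrow and abundant genes had 20.8% higher and 12.5% lower, beside 13.2% and 5.83% of all genes within the same limits. For the wide and abundant genes the shares were 6.67% and 22.7%, beside 13.5% and 6.80%. Genes with 1 exon had 1 higher and 11 lower of 44, those with 2 exons 9 and 8 of 46, and those with 3 or more exons 20 and 36 of 155. Over all genes the shares higher and lower were 15.6% and 13.7% with 1 exon, 11.7% and 10.9% with 2, and 12.9% and 8.29% with 3 or more.

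The extremes of width illustrate the spread. The narrowest, 2610019E17Rik (Rab26os in RefSeq, 295 bases), had 51 homogenate counts and 14 synaptosome counts, at -1.22. The next, 2010003O02Rik (325 bases), had 24 and 41 counts, at 1.42, and 2400009B08Rik (354 bases) had 52 and 33, at -0.01. The fourth, 2010107H07Rik (403 bases), had 44 in each library, at 0.64. These narrow genes lay on both sides of the typical gene.

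Among the widest, the transcribed pseudogene 5830417I10Rik (9833 bases) had 378 and 245 counts, at 0.02, and A830082N09Rik (7840 bases) had 372 and 262, at 0.14. 9530091C08Rik (7977 bases), which lies inside the span of Rora, a nuclear receptor gene, had 137 and 32 counts, at -1.46. A230073K19Rik (7288 bases) had 210 and 31, at -2.12. The widest genes were either near the typical gene or well below it.

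The miRNA hosts stood lowest as a group. Of the 12 hosts 9 were lower and 0 higher, 11 had a log2 ratio below 0, and the median was -2.18, a 4.52-fold lower level. The 228 genes that hold neither a miRNA nor a snoRNA gene had a median of -0.26, with 28 higher and 45 lower. Without the 12 hosts the other 233 genes had 46 lower, so the hosts made up 9 of the 55. Among other mRNA genes that hold a miRNA by the same rule, 460 in number, the median was 0.13 and 5.87% were lower, and among 11 other noncoding hosts the median was -0.34, with 3 lower. The grouping of the hosts was chosen with the ratios of these libraries known.

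A930011O12Rik (Mir124a-1hg in RefSeq, chr14:64588115-64593961, + strand) is the host of miR-124, a miRNA abundant in neurons, and is the second most abundant of the 245 genes by count. It had 5802 homogenate counts and 539 synaptosome counts, a 6.89-fold lower level (95% counting interval 6.31 to 7.54). A330023F24Rik, the host of miR-29b and miR-29c, had 2075 and 198 counts and was 6.71-fold lower (5.80 to 7.80). The host of miR-433, 6430411K18Rik, had 217 and 17 counts and was 8.18-fold lower (4.99 to 14.3), the lowest of the miRNA hosts. It lies opposite the exon of Rtl1, an imprinted gene derived from a retrotransposon. In all 3 of these hosts the interval lay wholly beyond 2-fold.

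B230206F22Rik (Ftx in RefSeq), an X-linked noncoding RNA that promotes expression of Xist, holds miR-374, miR-374b and miR-421. It had 855 homogenate counts and 92 synaptosome counts and was 5.95-fold lower (4.80 to 7.46). A230057D06Rik, which holds 7 genes of the miR-344 family, had 180 and 27 counts and was 4.27-fold lower (2.84 to 6.66). 2810008D09Rik (Snhg20), with miR-6516, had 202 and 27 counts and was 4.79-fold lower (3.20 to 7.45). E130102H24Rik, the host of miR-101a, had 63 and 8 counts and was 5.04-fold lower, with a wide interval of 2.41 to 12.2.

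The remaining hosts were closer to the typical gene. 2900076A07Rik, with miR-1839, had 69 and 16 counts, at -1.47 on the log2 scale, and 2210403K04Rik (Mir22hg) had 424 and 119, at -1.19. 2610203C20Rik (Mir100hg, with miR-125b-1) had 874 and 299 counts, at -0.90, and 5330434G04Rik (with miR-325) had 97 and 34, at -0.87. These hosts were below 0 with intervals that excluded equality. 2610100L16Rik (Mir124-2hg, a second miR-124 host) had 90 and 62 counts, at 0.11, and was the only host above 0.

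In 5 hosts the hairpin lies inside an annotated exon, and all 5 were lower, with a median of -2.75. In 7 hosts it lies outside the exons, and 4 were lower, with a median of -1.47. E130102H24Rik among the 5 and 2900076A07Rik among the 4 are the scarce hosts that passed the minimum on homogenate counts alone. The miRNA genes that have a row of their own in the files had 0 counts in both libraries.

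The 5 genes with a snoRNA gene inside their span were spread on both sides. The 6 genes with a snoRNA host name in RefSeq had a median of -1.09, with 1 higher and 3 lower. Snhg20 and Snhg14 were among those lower, so the picture depends on how a host is defined. The genes that follow are those found by span. 2410006H16Rik, which holds Snord49a, Snord49b and Snord65, had 136 homogenate counts and 280 synaptosome counts, a ratio of 3.21 (2.61 to 3.98). 0610007N19Rik (Snhg18) had 41 and 65 counts, at 1.31 on the log2 scale, and 1110038B12Rik, with Snord52, had 97 and 101, at 0.70. Both intervals lay above equality. 1810032O08Rik (Snhg16) had 40 and 15 counts, at -0.77 with an interval that included equality. 2700023E23Rik (Dancr, a noncoding RNA known for restraining differentiation, with Snora26 inside) had 83 homogenate counts and 4 synaptosome counts. It was the lowest of the 245 genes, 13.3-fold lower (5.00 to 49.9), and its 4 counts leave a wide interval.

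**Figure D4:**
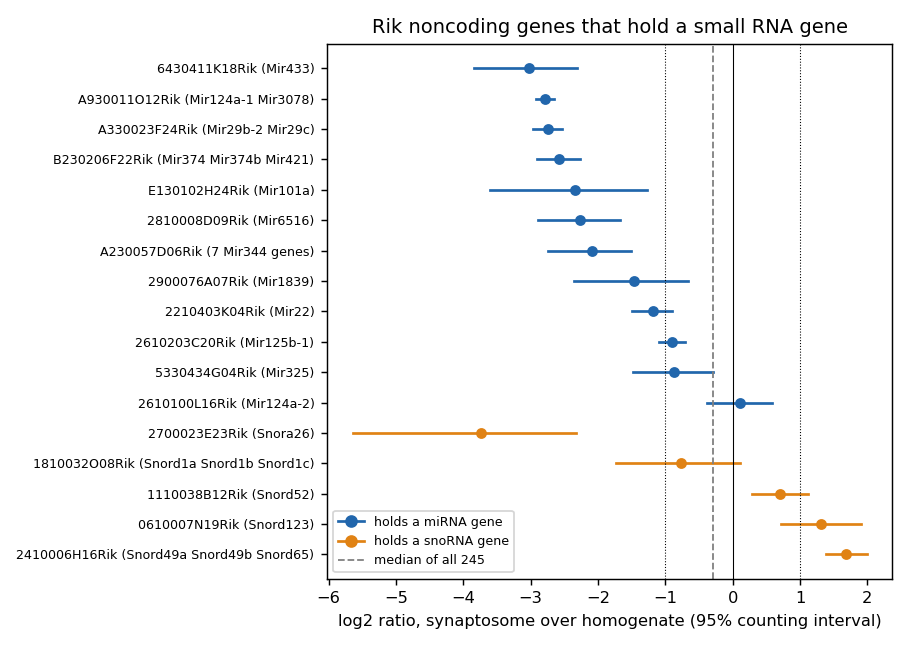
Log2 ratio, synaptosome over homogenate, with its 95% counting interval, for the Rik noncoding genes that hold a miRNA gene (blue) or a snoRNA gene (orange). The dashed line is the median of all 245 genes, dotted lines mark 2-fold, and 11 of the 12 miRNA hosts lie to the left of 0.

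The most abundant Rik noncoding gene was close to the typical gene. 2900097C17Rik (Norad, chr2:156388063-156392979, - strand, 1 exon) is a cytoplasmic noncoding RNA known for holding Pumilio proteins, which bind mRNA and shorten its life. It had 25884 homogenate counts and 19261 synaptosome counts, or 839 and 671 TPM as deposited. Its log2 ratio was 0.22 (0.19 to 0.24), and -0.28 under library totals, so its direction depends on the scaling. The GENCODE M21 transcript of the gene has 4915 bases and holds 11 matches to the Pumilio motif TGTANATA on its own strand, at positions 651 to 3526 with no overlaps. Of 4352 GENCODE transcripts within 10% of that length 41.61% hold at least 1 match, and 3, with this transcript among them, hold at least as many. Examples follow with the motif in capitals, shown because they are what this RNA is known for.
Norad position 651: aagtcctgTGTATATAatatgaaa
Norad position 1523: gactgctgTGTATATAgtggacaa
Norad position 2754: tactactaTGTATATAggggacaa
Norad position 3526: tgagaaagTGTACATAacggattg

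Other abundant members lay on both sides. A130077B15Rik had 4248 homogenate counts and 1903 synaptosome counts, at -0.52 on the log2 scale, and A030009H04Rik (Rnf227) had 1823 and 853, at -0.45. The pseudogene 6820431F20Rik had 3531 and 1297, at -0.80, and its reads may be shared with near-identical copies. 4933431E20Rik had 2188 and 2605 counts, at 0.89. Its exons lie opposite those of Gstm5 and Eps8l3, and Gstm5, a glutathione transferase gene, was at 1.65. 4933409K07Rik had 2183 and 2102 counts, at 0.59, in a region of many near-identical genes on chromosome 4, so its value is uncertain.

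The higher Rik noncoding genes included several of high abundance. 2900052N01Rik (chr9:46913603-46927366, + strand) had 579 homogenate counts and 2451 synaptosome counts, a ratio of 6.61 (log2 2.72, interval 2.59 to 2.86). E030003E18Rik (chr19:20492715-20556410, + strand) had 124 and 678 counts and the highest ratio of all, 8.54 (log2 3.09, 2.82 to 3.38). The span of C730002L08Rik, another Rik noncoding gene on the other strand, overlaps it, and that gene had 105 and 20 counts, at -1.75. The overlapping pair were thus on opposite sides of the typical gene.

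5930403L14Rik (chr4:154630691-154636367, - strand) is a single exon of 5677 bases inside the span and on the strand of Prdm16, a transcription regulator gene. It had 711 and 2003 counts, a ratio of 4.40, and Prdm16 itself was at 0.86 on the log2 scale. 1500009C09Rik had 1595 and 2562 counts, a ratio of 2.51, and 1700003M07Rik had 423 and 985, a ratio of 3.64. E130114P18Rik, opposite the span of Nfia, a transcription factor gene of glia and neurons, had 91 and 288 counts, a ratio of 4.94, while Nfia was at 1.06. The intervals of these 4 genes lay above 2-fold. Under library totals 1500009C09Rik lost its call, at 0.83 on the log2 scale.

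Others among the 10 highest with at least 200 counts had smaller ratios. C030037D09Rik had 63 homogenate counts and 172 synaptosome counts, at 2.09 on the log2 scale, and 1110054M08Rik (Lppos) had 69 and 142, at 1.68. 6530402F18Rik had 206 and 353, at 1.42, and shares exon sequence on 1 strand with Ntng2, which was at 0.75. A930005H10Rik had 100 and 164, at 1.36. Under library totals 9 of the 14 named genes that were higher stayed so. B230209K01Rik (Celrr), named after its value was seen, had 18 and 74 counts, at 2.68, and 2610017I09Rik (Pantr1) had 664 and 957, at 1.17.

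Among the lowest that hold no small RNA, 6720401G13Rik (Firre in RefSeq, chrX:50555744-50635258, - strand) is an X-linked RNA that stays in the nucleus and is known for organising chromatin. It had 2015 homogenate counts and 206 synaptosome counts and was 6.26-fold lower. A930013F10Rik, a single exon inside the span and on the strand of Polb, a DNA polymerase gene, had 203 and 22 counts and was 5.91-fold lower, while Polb was at -0.67 on the log2 scale. 6430706D22Rik, which RefSeq now lists under Hjurp, had 905 and 225 counts, at -1.37, and the row of Hjurp, a centromere chaperone, was at -1.45. Since their exons overlap, reads of this pair cannot be told apart.

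On the X chromosome, a grouping made after values were seen, 15 members were measured and 14 had a log2 ratio below 0. The median was -0.89, with 5 lower and 0 higher. The other 230 Rik noncoding genes had a median of -0.24 with 50 lower, and the 431 other mRNA genes on X a median of -0.10 with 14.2% lower. Of the 230, 59.6% had a log2 ratio below 0. Of all 471 genes on X, 57.5% were below 0 and 15.3% were called lower. The 5 lower genes were Firre, Ftx, C230004F18Rik (Cdr1os, 97 and 18 counts), 4933407K13Rik (77 and 9) and E530001F21Rik (56 and 7). C230004F18Rik, 4933407K13Rik and E530001F21Rik passed the minimum of 50 on their homogenate counts alone, so little is read from them. Ftx is also counted among the miRNA hosts. The only X-linked gene above 0 was 2900008C10Rik, which RefSeq lists under Bcor, with 61 and 70 counts.

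A second grouping made after values were seen is the imprinted region around Snrpn and Ube3a on chromosome 7, between 59 and 62 Mb. All 4 Rik noncoding genes there were lower, beside 8.57% of all 13465 genes. A230073K19Rik, opposite the exons of Ube3a, a ubiquitin ligase gene, was 4.34-fold lower. C230091D08Rik (Snhg14), the transcript that runs toward Ube3a on the other strand, had 76 and 17 counts, at -1.52 on the log2 scale. B230209E15Rik had 294 and 84, at -1.16, and A230057D06Rik is the miR-344 host. The noncoding Ipw and D7Ertd715e in the same window were at -0.80 and -1.46. Its mRNA genes were closer to the typical gene, with Snrpn at -0.51, Snurf at 0.36 and Ube3a at -0.01.

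Many of the 245 genes start next to another gene. The start of 94 lay within 1 kb of the start of a gene on the opposite strand, and these had a median of -0.15, beside -0.45 for the 151 with no such start. In 92 pairs the partner also had at least 50 counts. The noncoding gene had a median of -0.13 and the partner one of -0.09, and the median difference within pairs was 0.04. The intervals of the pair overlapped in 56, the noncoding gene lay below its partner in 22 and above it in 14. No such count was made over other pairs of genes. Spearman's rho across the pairs was 0.10, so the ratio of a gene said little about that of its neighbour. One pair of 2 Rik genes, 2610001J05Rik and 1110019D14Rik, is counted from both sides.

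Some pairs with wide gaps, named after their values were seen, show how far neighbours differed. 9430021M05Rik starts 16 bases from Ptprt, a receptor phosphatase gene of synapses. It had 268 homogenate counts and 85 synaptosome counts, at -1.01 on the log2 scale, while Ptprt had 505 and 1248, at 1.95. 4930570G19Rik starts 48 bases from Negr1, a cell adhesion gene, and had 142 and 39 counts, at -1.22, while Negr1 was at 0.66. The other way round, A930005H10Rik starts 53 bases from Dph5, a diphthamide synthesis gene, and was at 1.36 while Dph5 was at -0.40. C030037D09Rik was at 2.09 and its neighbour Msi2, an RNA-binding protein gene, at 0.93.

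The regions of 2 such shared starts are shown because their transcripts run opposite ways with opposite ratios. Each is the RefSeq window (build GRCm38.p6) from 250 bases before to 50 after the noncoding gene's start, with the last 50, from the start on, in capitals. The first is chr2:162660913-162661212 on the + strand and holds 52 CpG, with the start of Ptprt on the other strand at position 235. The second is chr3:115888081-115888380 on the - strand and holds 17 CpG, with the start of Dph5 at position 198. The median window held 17 CpG over 192 Rik noncoding genes and 7 over 27025 genes. The 27025 were not held to a minimum count as the 192 were, so the sets are not matched.
9430021M05Rik: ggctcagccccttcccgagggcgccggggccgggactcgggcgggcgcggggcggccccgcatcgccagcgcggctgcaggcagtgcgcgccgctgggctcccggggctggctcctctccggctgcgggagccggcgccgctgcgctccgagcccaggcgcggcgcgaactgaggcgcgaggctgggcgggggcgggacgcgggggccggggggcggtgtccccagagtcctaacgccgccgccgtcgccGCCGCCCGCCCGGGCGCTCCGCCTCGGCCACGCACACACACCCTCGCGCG
A930005H10Rik: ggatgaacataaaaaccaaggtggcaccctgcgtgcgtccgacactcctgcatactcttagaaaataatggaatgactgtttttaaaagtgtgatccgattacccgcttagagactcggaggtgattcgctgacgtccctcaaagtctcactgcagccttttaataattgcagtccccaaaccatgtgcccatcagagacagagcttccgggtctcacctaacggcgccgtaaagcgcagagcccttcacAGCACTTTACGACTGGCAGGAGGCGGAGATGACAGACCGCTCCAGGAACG

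**Figure D5:**
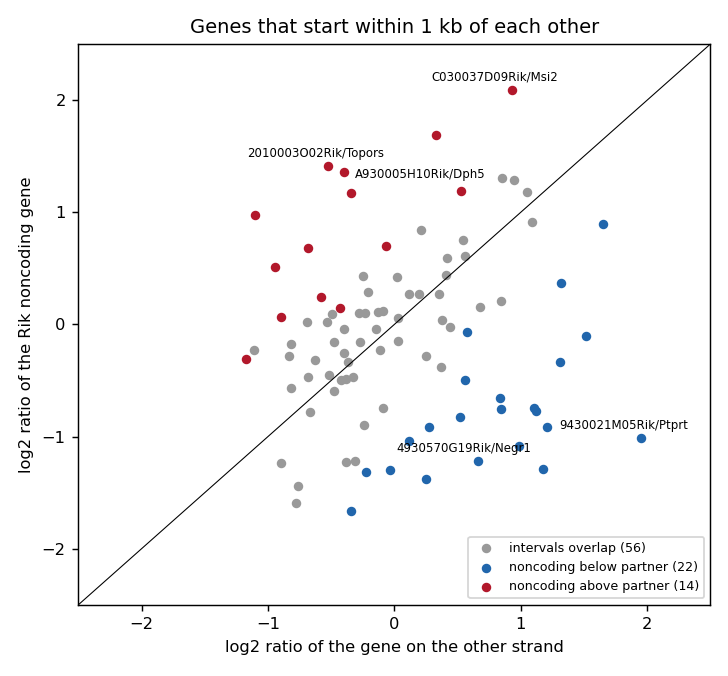
Log2 ratio, synaptosome over homogenate, of a Rik noncoding gene against that of the gene on the other strand whose start lies within 1 kb, for 92 pairs. The line marks equality, blue and red points are pairs whose 95% counting intervals do not overlap, and 9430021M05Rik with Ptprt lies farthest below the line.

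The 8 most abundant of the neighbours were mostly close to the typical gene. 2810468N07Rik (Cerox1), next to Sox8, had 698 and 404 counts, at -0.15 on the log2 scale. 2610507I01Rik, next to Mrpl55, had 791 and 493, at -0.04. 0610012G03Rik, next to Ncbp2, had 563 and 400, at 0.15. The rest were 4932415G12Rik at -0.25, 2610001J05Rik at 0.21, 4933439C10Rik at -1.04, 2810013P06Rik at 0.61 and 4933431E20Rik at 0.89.

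Overlap with other genes made little difference to the medians. The 160 genes whose span met no other gene had a median of -0.24, with 22 higher and 36 lower. The 85 with any overlap had -0.31, with 8 higher and 19 lower. Over all 13465 genes, overlapping or not, 12.9% were higher and 8.57% lower. Exons of 60 of the 245 genes lay opposite those of another gene. Their median was -0.28, with 4 higher and 11 lower. In the 55 such pairs with a measured partner, the noncoding gene lay below its partner in 21, above it in 7 and overlapped it in 27. No such count was made over other pairs of genes, and mRNA genes had the higher median as a class. Nothing is thus read from these numbers about overlap. The kit marks strand, but no source used here says whether the counting used it, so reads of such a gene and its antisense partner may not be told apart.

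The label of uncharacterised noncoding RNA no longer held for part of the set. Of the 245 genes 243 matched a RefSeq entry and 57 now carry another symbol. Of 242 at a matching locus, RefSeq lists 15 as protein coding, 12 as transcribed pseudogenes and 215 as long noncoding RNA. The 15 listed as coding had a median of 0.15, with 1 higher and 2 lower, and the 215 a median of -0.29, with 28 higher and 50 lower. The pseudogenes had a median of -0.79, with 1 higher and 2 lower. Over all 13465 genes 12.9% were higher and 8.57% lower.

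The genes now listed as coding include short proteins. 1500011K16Rik (Mtln), a micropeptide of mitochondria, had 188 homogenate counts and 176 synaptosome counts, at 0.55 on the log2 scale. 2210013O21Rik (Nbdy), a micropeptide tied to mRNA decapping, had 386 and 166, at -0.57. 2010003O02Rik (Smim27) was the only higher one, and 2010107H07Rik (Smim4) was at 0.64. The lower ones were 6430706D22Rik (Hjurp) and D930016D06Rik (Thoc2l, 344 and 97 counts).

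Opposite-strand names, given for transcripts antisense to a named gene, applied to 20 genes with a median of -0.26. Of these 5 were higher and 4 lower, beside 12.9% and 8.57% of all genes. Examples are 1700020I14Rik (Oip5os1, 523 and 762 counts, at 1.19) and C030044B11Rik (Fam120aos, 169 and 247 counts, at 1.19). C230004F18Rik (Cdr1os) was at -1.79 and 4930405P13Rik (Scpep1os), with 52 and 8 counts, at -2.06. The name did not go with a direction.

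Markers of cell types moved between the libraries too, and their part in the ratios of the Rik noncoding genes was not tested. Of 6 astrocyte markers 5 were higher and 0 lower, with 74647 and 202185 summed counts. Of 6 endothelial markers 5 were lower (3797 and 755 counts), and of 5 blood markers 5 were lower (4652 and 328), with Hba-a2 at 0 counts in the synaptosome fraction. Of 6 microglial markers 3 were higher and of 6 oligodendrocyte markers 2, with 0 lower in either. Of 6 neuronal markers 1 was higher and 3 lower.

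At the edge of the count minimum, values were imprecise. The 3 genes just inside it were A730036I17Rik with 17 and 33 counts, A430035B10Rik with 33 and 17, and 1700123M08Rik with 33 and 18. Those just outside were 9830166K06Rik with 44 and 5, G630055G22Rik with 41 and 8, and 9530082P21Rik with 25 and 23.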

How the data were processed

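RNA-seq of 2 libraries, 1 per fraction, was analysed. The authors deposited estimated counts and TPM per transcript, and 1 signal value per gene. FastQC, RSEM 1.2.5, TopHat 1.3.3, edgeR 3.0.6 and build mm10 are named, without roles or strand setting, per the submitters' processing notes. The estimated counts, as deposited by the authors, can be fractional: 61.4% (homogenate) and 67.9% (synaptosome) of transcript values were whole. The deposited TPM values scale for transcript length. The deposited signal equalled the summed count times 0.798 (homogenate) or 1.25 (synaptosome), within 0.5% for 98.6% of genes with at least 10 counts.

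Estimated counts were summed per gene symbol, rounded, and scaled with TMM (edgeR 4.0.16, R 4.3.3; factors 1.19 and 0.843). Ratios carry an exact 95% Clopper-Pearson interval given the summed count, and no p-value, since there was no replicate. A gene with 0 counts would take a floor of 3, which no member needed. Scripts used Python 3.11.15 and were tested on simulated data.

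The members and lists were chosen with earlier results of these data known. Named were the 10 most abundant members; the 10 highest and 10 lowest ratios with at least 200 counts; the 4 widest and 4 narrowest; 3 on each side of the minimum; and up to 8 hosts or neighbours by count, to which all hosts and the genes said to be chosen later were added. Coordinates are those of the files. RefSeq and GENCODE sequences are of GRCm38, and 222 of 242 members at a matching locus shared a start or end with RefSeq.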

Additional observations from a re-analysis of the deposited data

How the results depend on the processing

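No paired analysis was possible because the fractions share only 1 replicate number. Scaling by library totals gave 13 higher and 99 lower members. Deposited TPM gave 13 and 104, with a median log2 ratio of -0.83. With a minimum of 200 counts 14 were higher and 19 lower of 104 genes, and without overlapping genes 36 were lower of 160. Both sets hold fewer genes than the main set, so their counts are not read against its counts. The rho between ratio and abundance was 0.22 with mean TPM and turned to -0.27 with a minimum of 1 count (651 genes); the cause was not tested. DESeq2 size factors, the deposited signal, a minimum of 20, single transcripts and, both chosen after seeing the data, the 215 RefSeq long noncoding RNAs and the set without miRNA hosts kept each count of higher and lower genes within 1.5 times and the sign of the median. The uncalled 2400009B08Rik, near 0, went from -0.01 to 0.01 with DESeq2 size factors. Under library totals other uncalled members changed sign too, such as 0610012G03Rik (0.15 to -0.34) and 2610001J05Rik (0.21 to -0.29). The rho with width stayed between -0.26 and -0.17 in all settings. Of 50 named members none reversed among those called; 29 were called, and 24 kept the call under library totals, with all 15 lower ones among them. Under library totals 11 of the 12 miRNA hosts were lower. Depth limits the scarce genes most: the half-width of the counting interval had a median of 0.52 on the log2 scale.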
